A study of Mus musculus with 7 samples.

Results

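Extracellular matrix genes, 9 in all, that are read in spiny projection neurons (SPNs) of the mouse striatum were followed here, chosen by symbol: Abi3bp, Spock1, Spock2, Spock3, Edil3, Col11a1, Col6a1, Ndst3 and Reln. All 9 were present among the 27998 genes of the tables. They were picked with the genotype differences in SPNs already in view, so levels and fold changes in SPNs are given as a description and carry no test. The data are nuclear RNA counts from 4524 single nuclei of striatal tissue from 7 mice, all male and of the C57BL6/J strain, of which 3 were wild type (WT) and 4 carried the HttQ175 allele in 1 copy (HttQ175/+), a knock-in of an expanded CAG repeat into the mouse huntingtin gene that models Huntington's disease. Their age was 14 months, or 15 months for HttQ175/+ replicate 1, and the striatum of each was read as a separate droplet library of transcript 3' ends. The question behind the series is how the mutation affects what distinguishes striatal cell types from one another.

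The extracellular matrix of the brain is a mesh of proteoglycans, glycoproteins and small amounts of collagen that neurons and glia secrete, and cells bind it through integrins and other receptors. Testicans are secreted proteoglycans, fibrillar and network collagens give mechanical support, and sulfotransferases of the Golgi set where proteins can bind to heparan sulfate chains. In the adult striatum most neurons are SPNs, which project in either the direct (dSPNs) or the indirect pathway (iSPNs), and interneurons are rarer.

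Promoters of the 3 testicans and of 2 members that were higher in HttQ175/+ SPNs are shown because members of 1 family differed in their change and these sequences let them be set side by side. Each runs from 250 bases before to 50 bases after the RefSeq start on the GRCm38.p6 build, is written 5′ to 3′ on the strand of the gene, and has every CG dinucleotide in capitals.
Spock1: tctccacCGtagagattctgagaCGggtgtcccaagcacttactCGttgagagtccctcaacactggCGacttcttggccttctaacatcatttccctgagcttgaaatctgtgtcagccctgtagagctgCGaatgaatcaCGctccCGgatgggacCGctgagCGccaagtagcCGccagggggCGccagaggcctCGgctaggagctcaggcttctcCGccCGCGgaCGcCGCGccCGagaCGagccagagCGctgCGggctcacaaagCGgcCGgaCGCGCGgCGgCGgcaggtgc
Spock2: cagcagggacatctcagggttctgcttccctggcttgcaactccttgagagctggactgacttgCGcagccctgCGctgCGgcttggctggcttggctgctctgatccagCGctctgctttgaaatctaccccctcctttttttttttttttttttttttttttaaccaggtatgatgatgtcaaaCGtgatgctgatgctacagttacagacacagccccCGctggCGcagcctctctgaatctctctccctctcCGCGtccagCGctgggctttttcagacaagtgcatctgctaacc
Spock3: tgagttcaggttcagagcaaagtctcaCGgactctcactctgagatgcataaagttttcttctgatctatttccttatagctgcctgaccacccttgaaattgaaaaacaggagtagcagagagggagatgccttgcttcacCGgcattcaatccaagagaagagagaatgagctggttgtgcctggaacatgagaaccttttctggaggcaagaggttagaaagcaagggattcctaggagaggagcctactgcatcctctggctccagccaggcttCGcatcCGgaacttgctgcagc
Col11a1: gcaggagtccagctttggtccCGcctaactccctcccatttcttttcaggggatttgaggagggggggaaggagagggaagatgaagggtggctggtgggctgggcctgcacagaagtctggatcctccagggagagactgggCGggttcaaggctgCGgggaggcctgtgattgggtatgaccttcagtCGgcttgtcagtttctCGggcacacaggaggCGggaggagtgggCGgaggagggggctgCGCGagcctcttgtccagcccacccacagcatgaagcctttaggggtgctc
Ndst3: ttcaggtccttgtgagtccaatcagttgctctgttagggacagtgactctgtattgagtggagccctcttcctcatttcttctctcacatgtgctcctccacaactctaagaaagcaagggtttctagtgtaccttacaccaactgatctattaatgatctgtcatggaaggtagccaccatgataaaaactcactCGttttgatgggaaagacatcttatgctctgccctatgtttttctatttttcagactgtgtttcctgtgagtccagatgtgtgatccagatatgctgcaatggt
Where the table held 2 entries for a gene, as for Spock3 and Ndst3, the one nearest the annotated gene start was taken. They lie at chr13:57908283-57908582 on the minus strand, chr10:60106007-60106306 and chr8:62950982-62951281 on the plus strand, chr3:114030290-114030589 on the plus strand and chr3:123672428-123672727 on the minus strand. The Ndst3 window lies inside the gene, whose annotated start is at 123690853, so its CG count does not describe that start. The Spock1 promoter held 29 CG, a number reached by 12.9% of the 32851 RefSeq promoters of this length. That of Spock2 held 10 (reached by 43.5%) and that of Spock3 held 4 (68.6%). The Col11a1 promoter held 9 CG (45.8%), the Ndst3 promoter 1 (94.6%), the Col6a1 promoter 3 (76.7%) and the Reln promoter 47 (1.44%). The motif TATAAA, searched on both strands, was in none of these 7 windows and in 13.6% of all, and the palindrome TGACGTCA was in none of the 7 and in 1.79% of all. Symbols of 7 of the 9 members matched the promoter table; Abi3bp and Edil3 did not.

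Libraries held 338 to 558 nuclei and 872558 to 1436425 unique molecular identifiers (UMIs) in WT, and 448 to 1239 nuclei and 1096116 to 2256178 UMIs in HttQ175/+ mice. Median UMIs per nucleus were 2498 to 2599 in WT and 1657 to 2384.5 in HttQ175/+ mice, so the median was lower in every HttQ175/+ library. This order did not hold in every type. In astrocytes the medians were 1339 to 1472.5 in WT and 1410.5 to 2383 in HttQ175/+ mice. Only 3 droplet barcodes occurred in 2 or more libraries. The authors' annotation sorted nuclei into 12 types. For 11 of them a marker list was available, and each list was highest in its own type by the mean over all 7 mice. In WT mice alone the dSPN list was higher in eccentric SPNs (1235 to 1698 CPM) than in dSPNs (1172 to 1554 CPM), with ranges that overlapped. Levels are the mean over nuclei of UMIs per 1000000 UMIs of the nucleus (CPM), 1 value per mouse. Changes are log2 fold changes of HttQ175/+ over WT from limma, with standard errors (SE). They were fitted in the 5 types with enough nuclei, namely dSPNs, iSPNs, Sst interneurons, astrocytes and oligodendrocytes. Fewer cells of a type and less RNA per cell cannot be told apart in summed RNA, whereas these levels are averages within an annotated type.

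The member with the lowest HttQ175/+ level relative to WT was Abi3bp (ENSMUSG00000035258.15, chromosome 16, 56477878 to 56690135 on mm10), a secreted glycoprotein that binds other matrix proteins. In dSPNs it read 75.2, 85.4 and 109.6 CPM in WT replicates 1, 2 and 3. The 4 HttQ175/+ replicates read 14.1, 7.40, 10.6 and 8.11 CPM. Every HttQ175/+ mouse thus lay far below every WT mouse, and the log2 change was -2.88 ± 0.26 (SE). In iSPNs the WT mice read 79.0, 81.5 and 68.2 CPM and the HttQ175/+ mice 15.4, 2.44, 10.9 and 11.2 CPM, a log2 change of -2.35 ± 0.40. The groups did not overlap there either. The counts behind these values were 134 UMIs in WT and 29 in HttQ175/+ dSPNs, and 63 and 9 UMIs in iSPNs.

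To compare detection at 1 depth, each nucleus was thinned to 1000 UMIs, which kept every nucleus, and the expected share of nuclei with a UMI was computed. For Abi3bp it was 6.75% to 9.72% of WT dSPN nuclei and 0.740% to 1.41% of HttQ175/+ dSPN nuclei. In oligodendrocytes, a type with 14 WT and 6 HttQ175/+ UMIs of the gene, the shares were 0.866% to 4.12% and 0% to 1.77%. Levels in WT dSPNs exceeded those in oligodendrocytes in 3 of 3 mice and in HttQ175/+ mice in 3 of 4. The share of HttQ175/+ dSPNs lay inside the oligodendrocyte range, so the Abi3bp reads left in HttQ175/+ dSPNs are not read as expression, and the part of free RNA in them was not tested. Without thinning, the mean share of nuclei with an Abi3bp UMI was 18.9% in WT and 2.11% in HttQ175/+ dSPNs.

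Among the testicans Spock3 (chromosome 8, 62951009 to 63357103) followed the same direction. WT dSPNs read 230.1, 179.6 and 228.8 CPM and HttQ175/+ dSPNs 58.1, 84.2, 116.3 and 82.6 CPM, with a log2 change of -1.43 ± 0.22. In iSPNs the WT mice read 250.5, 242.3 and 171.7 CPM and the HttQ175/+ mice 87.1, 52.9, 95.2 and 70.2 CPM (log2 change -1.57 ± 0.23). The lowest WT mouse stood above the highest HttQ175/+ mouse in both types. These levels rest on 316 and 245 UMIs in dSPNs and on 189 and 89 UMIs in iSPNs. In HttQ175/+ mice the Spock3 level of dSPNs exceeded that of oligodendrocytes in 2 of 4 mice, against 3 of 3 WT mice.

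The other testicans did not separate the genotypes in SPNs. Spock1 (chromosome 13, 57421195 to 57908332) read 67.2, 52.1 and 40.2 CPM in WT dSPNs and 52.1, 53.5, 34.0 and 37.5 CPM in HttQ175/+ dSPNs (log2 change -0.35 ± 0.24). Its iSPN values were 49.5 to 87.7 CPM in WT and 40.8 to 69.8 CPM in HttQ175/+ mice (-0.37 ± 0.27). Spock2 (chromosome 10, 60106219 to 60135198) read 136.1, 99.3 and 123.3 CPM in WT dSPNs. In HttQ175/+ dSPNs it read 110.7, 188.6, 110.9 and 117.7 CPM, so that replicate 2 stood above all other mice (log2 change -0.002 ± 0.22; without TMM scaling it was 0.11). In iSPNs the log2 change of Spock2 was 0.16 ± 0.33, with HttQ175/+ replicate 2 again the highest mouse, at 163.8 CPM. It turned to -0.12 without that mouse.

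A pair of secreted glycoproteins with known receptors differed from each other. Edil3 (chromosome 13, 88821472 to 89323223), which binds integrins through an RGD sequence, read 47.2, 36.3 and 35.9 CPM in WT dSPNs and 83.9, 80.8, 53.9 and 75.5 CPM in HttQ175/+ dSPNs, a log2 change of 0.71 ± 0.22. In iSPNs it read 27.1, 12.5 and 28.4 CPM in WT and 78.2, 61.3, 63.1 and 65.5 CPM in HttQ175/+ mice (1.22 ± 0.30). All HttQ175/+ mice stood above all WT mice in both types. In both, the Edil3 level exceeded that of oligodendrocytes in 0 of 3 WT and 0 of 4 HttQ175/+ mice. It exceeded that of astrocytes in 1 of 4 HttQ175/+ mice in dSPNs and in 0 of 4 in iSPNs. The part of free RNA in these reads was not tested. Reln (chromosome 5, 21884454 to 22344702), the secreted ligand of the lipoprotein receptors Vldlr and Lrp8, overlapped between genotypes. WT dSPNs read 243.7, 237.0 and 281.9 CPM and HttQ175/+ dSPNs 193.9, 254.0, 213.6 and 257.0 CPM (-0.27 ± 0.16). In iSPNs the WT mice read 155.7 to 174.6 CPM, while the HttQ175/+ mice spread from 67.0 to 186.0 CPM (-0.62 ± 0.27), and 3 of the 4 lay below every WT mouse.

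**Figure D1:**
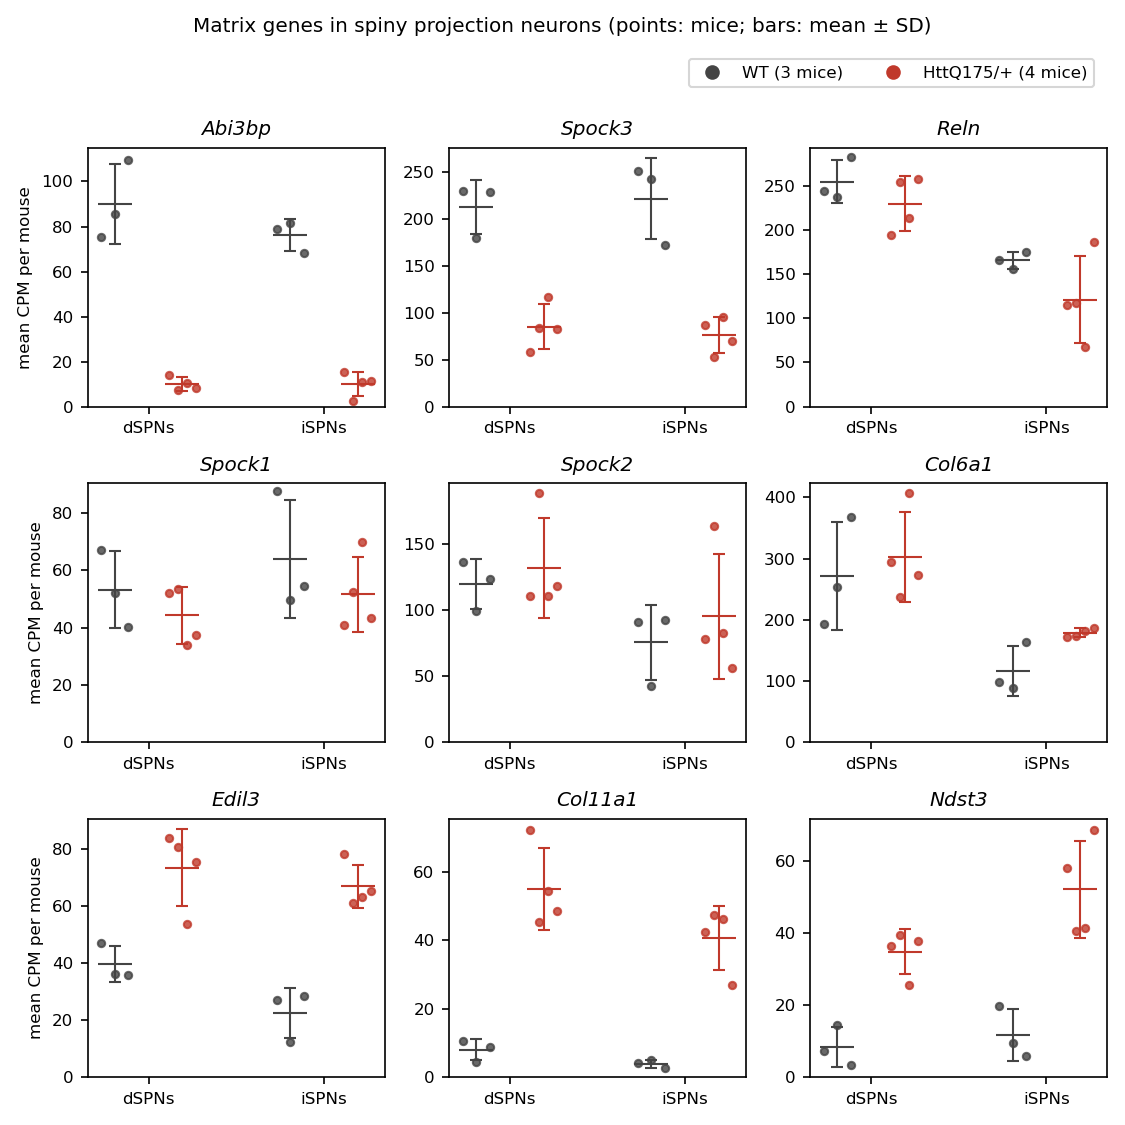
Level of each member in dSPNs and iSPNs as mean CPM per mouse (vertical axis), with WT mice in grey and HttQ175/+ mice in red; points are mice and bars the mean ± SD. Abi3bp and Spock3 sit lower in all HttQ175/+ mice and Edil3, Col11a1 and Ndst3 higher in all of them in both types, whereas Spock1, Spock2 and Reln overlap, as does Col6a1 in dSPNs.

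The fibrillar collagen chain Col11a1 (chromosome 3, 114030540 to 114220718) stood near 0 in WT SPNs. It read 10.6, 4.62 and 9.01 CPM in WT dSPNs and 72.1, 45.3, 54.4 and 48.5 CPM in HttQ175/+ dSPNs, with 11 and 152 UMIs and a log2 change of 2.24 ± 0.28. In iSPNs the WT mice read 4.15, 5.01 and 2.80 CPM and the HttQ175/+ mice 42.3, 47.4, 46.1 and 27.0 CPM. With 3 WT and 55 HttQ175/+ UMIs in iSPNs, the ratio per UMI sequenced was 13.2, with a 95% counting interval from 4.30 to 66.2, and the fitted log2 change of 1.91 ± 0.49 depends on the pseudocount. Genotypes did not overlap in either type.

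Col11a1 also marks eccentric SPNs, a small SPN class. The other 4 eccentric SPN markers, Otof, Casz1, Pcdh8 and Cacng5, summed to 29.5 to 50.2 CPM in WT and 27.4 to 51.7 CPM in HttQ175/+ dSPNs. By UMIs summed over the mice of a genotype, 3 of the 4 were higher in HttQ175/+ dSPNs. When nuclei with any UMI of those 4 markers were left out, a choice made after seeing the data, the log2 change of Col11a1 in dSPNs was 2.98. The higher reads were not limited to SPNs. In oligodendrocytes Col11a1 read 15.5, 0 and 0 CPM in WT and 47.3, 64.0, 11.4 and 67.8 CPM in HttQ175/+ mice, on 2 and 42 UMIs (ratio 7.31, interval 1.90 to 62.4). The expected share at 1000 UMIs was 4.40% to 6.18% of HttQ175/+ dSPN nuclei and 1.14% to 5.88% of HttQ175/+ oligodendrocyte nuclei. The level in dSPNs exceeded that in oligodendrocytes of the same mouse in 2 of 4 HttQ175/+ mice and that in astrocytes in 4 of 4, and the level in iSPNs exceeded that in oligodendrocytes in 1 of 4. The Col11a1 reads of HttQ175/+ dSPNs and iSPNs are therefore not above those of oligodendrocytes in every library, and the part of free RNA in them was not tested.

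Col6a1 (chromosome 10, 76708792 to 76726168), a chain of the beaded-filament collagen VI, showed no such separation in dSPNs. WT dSPNs read 192.6, 254.2 and 367.7 CPM and HttQ175/+ dSPNs 295.0, 236.9, 406.7 and 272.5 CPM (0.06 ± 0.22). In iSPNs it read 98.8, 88.0 and 162.9 CPM in WT and 171.3, 173.7, 181.3 and 187.3 CPM in HttQ175/+ mice (0.50 ± 0.23). All 4 HttQ175/+ mice lay above all WT mice there, by a narrow margin over WT replicate 3.

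Ndst3 (chromosome 3, 123526166 to 123690853) encodes an N-deacetylase and N-sulfotransferase of heparan sulfate. It read 7.24, 14.6 and 3.49 CPM in WT dSPNs and 36.6, 39.5, 25.6 and 37.9 CPM in HttQ175/+ dSPNs, on 6 and 103 UMIs, with a log2 change of 1.68 ± 0.34. In iSPNs, where it was too low for the fit, WT mice read 19.7, 9.47 and 5.97 CPM and HttQ175/+ mice 58.0, 40.7, 41.5 and 68.5 CPM. The iSPN counts were 10 and 57 UMIs, a ratio of 4.12 with a counting interval from 2.08 to 9.04. All HttQ175/+ mice were higher than all WT mice in both types. Oligodendrocytes again followed, with 1 WT and 33 HttQ175/+ UMIs (ratio 11.5, interval 1.92 to 467.4). There the WT mice read 0, 0 and 5.45 CPM and the HttQ175/+ mice 54.9, 29.5, 16.1 and 30.4 CPM. In iSPNs of HttQ175/+ mice the level exceeded that of oligodendrocytes in 4 of 4 mice, and in dSPNs in 3 of 4. The part of free RNA in these reads was not tested.

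Of the 9 members 4 passed an adjusted p under 0.05 in dSPNs, Abi3bp and Spock3 as lower and Col11a1 and Ndst3 as higher, where 3.91% of 8796 genes passed (1.44% as higher and 2.47% as lower). Of the 8 members that entered the iSPN fit 3 passed, Abi3bp and Spock3 as lower and Edil3 as higher, where 2.4% of 5908 genes passed (0.491% as higher and 1.91% as lower). The members were chosen on these results, so nothing is read from the counts. Some members reached the filter on low values in 1 genotype alone and so had to differ, namely Abi3bp in WT mice in both types, Col11a1 in HttQ175/+ mice in both, Ndst3 in HttQ175/+ mice in dSPNs and Edil3 in HttQ175/+ mice in iSPNs. The groups did not overlap for 5 of 9 members in dSPNs, 3 higher and 2 lower in all HttQ175/+ mice, where 17.8% of genes tested did not (12.6% higher and 5.26% lower). In iSPNs they did not overlap for 6 of 9 members, 4 higher and 2 lower, where 14.6% of genes tested did not (9.19% and 5.4%). Ndst3 is among these 6 without having entered the iSPN fit. The call of Edil3 in iSPNs was lost when any 1 of the 7 mice was left out (log2 change 0.97 to 1.38), with no filter and without the top 5% of nuclei by UMIs, and Col11a1 in iSPNs passed in 4 other settings, with a pseudocount of 5 UMIs, no TMM scaling, no filter or summed UMIs. Abi3bp could not be fitted without a WT mouse because it then missed the filter on low values.

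Whether a change differed between dSPNs and iSPNs was tested within mice. None of 5903 genes passed an adjusted p under 0.05 in limma, 0.0% of those tested, and 348 had an unadjusted p under 0.05. The differences, dSPNs minus iSPNs, ran from -0.53 ± 0.27 for Abi3bp to 0.36 ± 0.27 for Reln among the 8 members tested. Adjusted p lay between 0.820 for Abi3bp, Col6a1 and Edil3 and 0.997 for Spock1 (limma). Unequal change of these genes in the 2 pathways was therefore not shown, nor was equal change.

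Other gene groups differed between genotypes in the same nuclei. Summed SPN markers were 10750 to 11506 CPM in WT and 5142 to 6030 CPM in HttQ175/+ dSPNs, with 0 of 8 markers higher in HttQ175/+ mice. Neuroblast markers summed to 67.1 to 81.8 CPM in WT and 111.9 to 159.4 CPM in HttQ175/+ dSPNs, with 4 of 5 higher and 0 of 5 at 0. Markers of cortical excitatory neurons summed to 3.12 to 10.1 CPM and 19.8 to 39.5 CPM, with 4 of 5 higher and 0 of 5 at 0. Interneuron markers of the Pvalb or Pnoc class also stood apart, at 2.54 to 3.64 and 3.68 to 5.13 CPM (3 of 5 higher). Summed astrocyte, oligodendrocyte, microglial, endothelial and fibroblast markers overlapped between genotypes in dSPNs, and the fibroblast markers Dcn and Col1a2 were at 0. In iSPNs the SPN markers were lower in all HttQ175/+ mice too (5937 to 7352 CPM against 12386 to 12786 CPM, 0 of 8 higher). Neuroblast markers were higher there (117.8 to 167.1 against 75.7 to 101.1 CPM, 3 of 5 higher). Each SPN type's own list was lower in all HttQ175/+ mice. The dSPN list in dSPNs read 770.4 to 983.4 against 1172 to 1554 CPM (2 of 6 higher). The iSPN list in iSPNs read 802.4 to 905.8 against 1964 to 2669 CPM (1 of 5 higher). The part of these groups in the results for matrix genes was not tested.

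**Figure D2:**
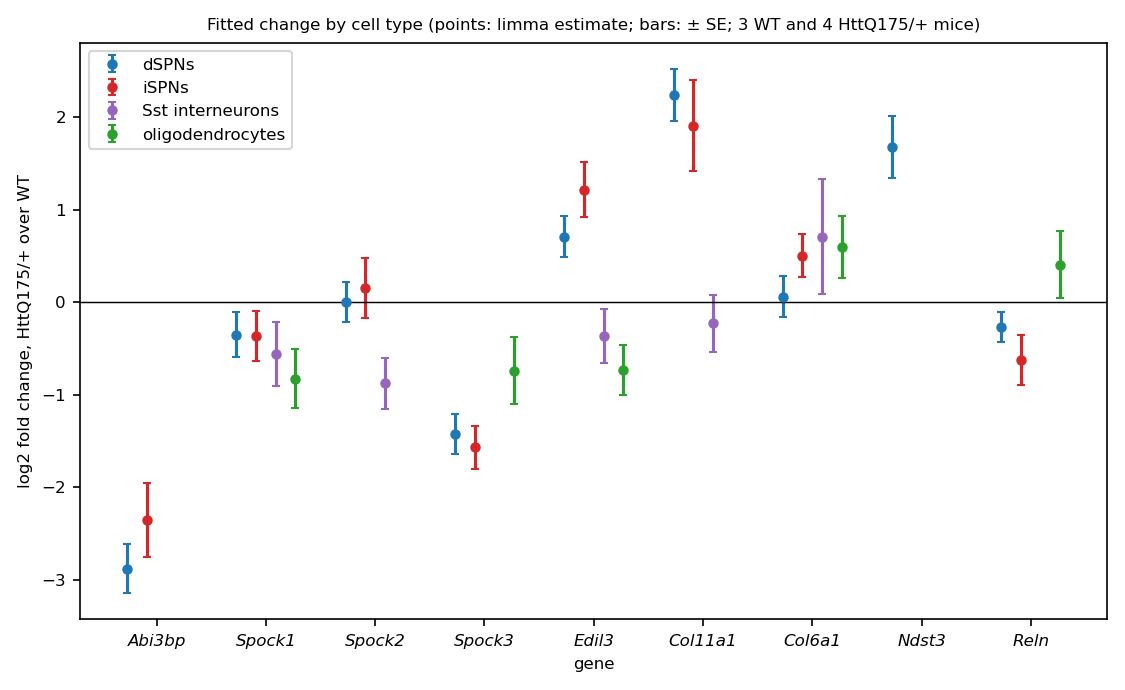
Fitted log2 fold change of HttQ175/+ over WT (vertical axis) for each member (horizontal axis) in the types where it entered the fit, coloured by type; points are limma estimates and bars ± SE from 3 WT and 4 HttQ175/+ mice. Estimates in dSPNs run from -2.88 for Abi3bp to 2.24 for Col11a1, Ndst3 is shown in dSPNs alone, and Edil3 is above 0 in SPNs and below 0 in oligodendrocytes.

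Outside SPNs no member passed the test between genotypes. In Sst interneurons 5 members entered the fit and 0 passed, as did 0 of 2296 genes (0.0%; 176 genes at an unadjusted p under 0.05, limma). Spock2 had the largest change, from 334.8, 481.1 and 463.9 CPM in WT to 197.1, 252.9, 192.9 and 207.3 CPM in HttQ175/+ mice (log2 change -0.88 ± 0.27, adjusted p = 0.629, limma). All 4 HttQ175/+ mice were lower. Changes were -0.56 ± 0.35 for Spock1, -0.37 ± 0.29 for Edil3, -0.23 ± 0.31 for Col11a1 and 0.71 ± 0.62 for Col6a1. The Col11a1 estimate turned to 0.23 without WT replicate 1, which read 751.4 CPM against 251.2 and 283.9 CPM in the other WT mice, and that of Col6a1 turned to -0.51 without the same mouse, which read 0. Abi3bp, too low for the fit in this type, read 29.1, 56.2 and 41.2 CPM in WT and 0, 6.38, 6.45 and 6.68 CPM in HttQ175/+ mice, on 8 and 3 UMIs. Of the 9 members 2 did not overlap between genotypes, both lower, where 7.88% of genes tested did not (3.96% higher and 3.92% lower). In these nuclei SPN markers were lower in all HttQ175/+ mice (1030 to 1995 against 2243 to 2911 CPM, 1 of 8 higher, 0 of 8 at 0) and astrocyte markers higher (91.4 to 467.8 against 38.2 to 53.8 CPM, 5 of 5 higher, 0 of 5 at 0). Markers of the Pvalb or Pnoc class were also higher in all of them (163.7 to 210.7 against 94.7 to 109.7 CPM, 4 of 5 higher, 0 of 5 at 0) and iSPN markers lower (81.0 to 188.4 against 274.6 to 427.3 CPM, 0 of 5 higher, 0 of 5 at 0). Their part in these values was not tested.

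In oligodendrocytes 5 members entered the fit and 0 passed, where 24 of 3650 genes passed (0.658%; 0.11% as higher and 0.548% as lower). Edil3 read 642.2, 664.6 and 696.0 CPM in WT and 375.4, 333.0, 552.1 and 396.4 CPM in HttQ175/+ mice (log2 change -0.73 ± 0.27, adjusted p = 0.212, limma). All 4 HttQ175/+ mice lay below all WT mice, the opposite of the order in dSPNs and iSPNs. Spock1 went from 135.5, 146.2 and 117.9 CPM to 67.6, 106.3, 51.0 and 64.4 CPM (-0.83 ± 0.32, adjusted p = 0.243, limma), again with no overlap. Changes of the other 3 were -0.74 ± 0.36 for Spock3, 0.59 ± 0.34 for Col6a1 and 0.41 ± 0.36 for Reln, with adjusted p of 0.390, 0.468 and 0.679 (limma). Counting Ndst3, 3 of 9 members did not overlap, 1 higher and 2 lower, where 11.4% of genes tested did not (6.82% higher and 4.58% lower). Oligodendrocyte markers summed to 23301 to 26184 CPM in WT and 9225 to 20085 CPM in HttQ175/+ oligodendrocytes, with 0 of 5 higher and 0 of 5 at 0, and SPN markers to 3659 to 4393 and 2063 to 3639 CPM. Neuroblast markers were higher there (117.8 to 174.1 against 16.6 to 95.8 CPM, 4 of 5 higher, 0 of 5 at 0), as were fibroblast markers (13.4 to 44.8 CPM against 0 in each WT mouse, 3 of 5 higher), of which Col1a1 and Col1a2 were at 0. The iSPN markers were lower (123.3 to 307.2 against 367.9 to 457.0 CPM, 2 of 5 higher, 0 of 5 at 0). The part of these groups in the values of Edil3 and Spock1 was not tested. Leaving out HttQ175/+ replicate 3 raised the number of genes that passed in this type from 24 to 93, with none of the 5 members among them.

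Astrocytes held 102 WT nuclei, and no member reached the level needed for the fit. Edil3 read 4.30, 14.3 and 69.7 CPM in WT and 83.1, 115.1, 83.7 and 83.3 CPM in HttQ175/+ astrocytes, on 9 and 41 UMIs. Spock1 had 0 UMIs in WT and 22 UMIs in HttQ175/+ astrocytes, at least 3.27-fold higher when all WT mice together are set to 3 UMIs. HttQ175/+ replicate 2 held 14 of these UMIs, and without it the bound was 1.85-fold. Ndst3 had 0 and 8 UMIs. Those 3 members did not overlap between genotypes and were higher in each HttQ175/+ mouse. Of the genes tested in astrocytes 11.8% did not overlap (5.71% higher and 6.09% lower). No member was among the genes tested, so this share comes from genes that met the filter on low values. For Spock1 and Ndst3, with 0 WT UMIs, any UMI in each HttQ175/+ mouse was enough for no overlap. In limma 0 of 1873 genes passed (0.0%), with 245 at an unadjusted p under 0.05. Oligodendrocyte markers were also higher in HttQ175/+ astrocytes, at 1046 to 2076 CPM against 537.3 to 1021 CPM (5 of 5 higher, 0 of 5 at 0), as were microglial markers, at 86.1 to 380.4 CPM against 29.2 to 71.0 CPM (5 of 5 higher, 0 of 5 at 0). Oligodendrocyte progenitor markers were at 0 in each WT mouse and at 14.0 to 111.8 CPM in HttQ175/+ astrocytes (4 of 4 higher, 0 of 4 at 0). Cholinergic markers were at 0 and at 12.2 to 30.8 CPM (3 of 4 higher, with Chat at 0). Their part in these values was not tested.

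**Figure D3:**
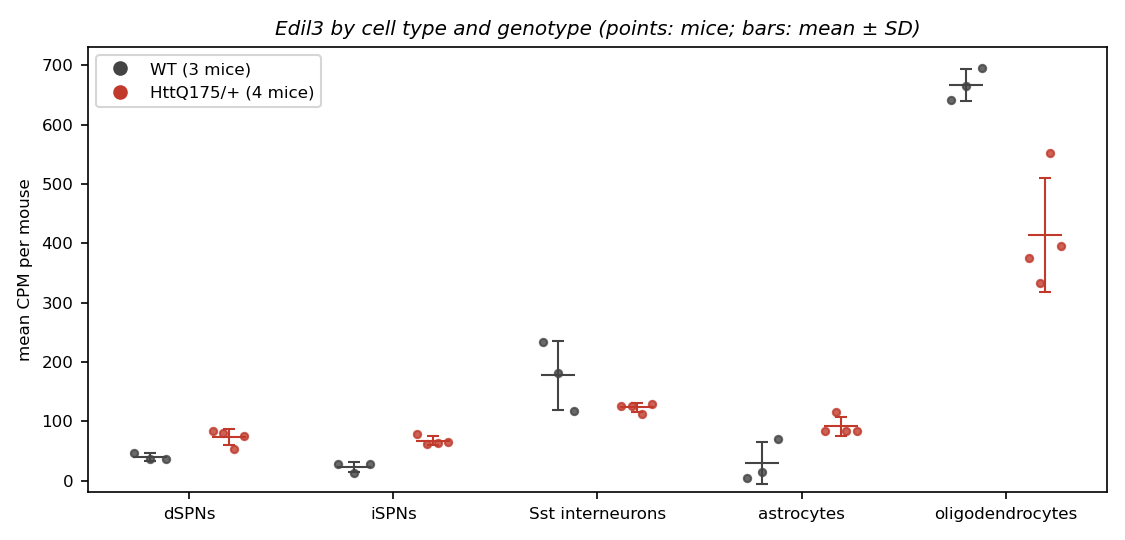
Edil3 level as mean CPM per mouse (vertical axis) in the 5 types tested, with WT mice in grey and HttQ175/+ mice in red; points are mice and bars the mean ± SD. HttQ175/+ mice are above WT mice in dSPNs, iSPNs and astrocytes, overlap with them in Sst interneurons and are below them in oligodendrocytes, where WT mice read 642.2 to 696.0 CPM.

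Across the 9 types with at least 20 WT nuclei the members had different places of highest level. In WT mice Abi3bp was highest in dSPNs (90.0 ± 17.7 CPM, SD, n = 3) and iSPNs (76.2 ± 7.08 CPM), whose ranges overlapped, and both lay above Sst interneurons (42.2 ± 13.6 CPM). From there down to polydendrocytes, the authors' name for oligodendrocyte progenitors, at 8.94 CPM all neighbouring types overlapped. Spock3 was likewise highest in iSPNs (221.5 ± 43.3 CPM) and dSPNs (212.8 ± 28.8 CPM), above oligodendrocytes (129.2 ± 52.5 CPM). In eccentric SPNs Spock3 had its lowest mean of the 9 types, 15.9 CPM on 2 UMIs. Abi3bp read 29.5 CPM there, also on 2 UMIs. Reln was highest in dSPNs (254.2 ± 24.2 CPM), separate from iSPNs (165.5 ± 9.49 CPM), and Pnoc/Pvalb interneurons were at 0 UMIs in WT.

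Spock2 was highest in endothelial cells, at 2277 ± 1148 CPM, followed by Sst interneurons (426.6 ± 80.0 CPM) and Pnoc/Pvalb interneurons (186.5 ± 9.94 CPM), with ranges that did not overlap. Spock1 stood at 170.6 ± 84.5 CPM in Pnoc/Pvalb interneurons, 153.3 ± 38.4 CPM in Sst interneurons and 133.2 ± 14.3 CPM in oligodendrocytes. These 3 overlapped. Sst interneurons and oligodendrocytes lay above both SPN types, while the lowest WT mouse for Pnoc/Pvalb interneurons, at 82.4 CPM, fell within the iSPN range of 49.5 to 87.7 CPM. Edil3 was highest in oligodendrocytes (667.6 ± 27.1 CPM), separate from Pnoc/Pvalb interneurons (484.1 ± 87.2 CPM) and these from Sst interneurons (177.5 ± 57.7 CPM), while dSPNs stood at 39.8 ± 6.42 CPM. The members highest in WT dSPNs or iSPNs, Abi3bp, Spock3 and Reln, thus had other neighbours in this order than Edil3, whose SPN level was low in WT mice.

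Col11a1 was highest in Sst interneurons (428.8 ± 279.8 CPM) and eccentric SPNs (226.6 ± 123.3 CPM), which overlapped, and all other types stood below them. Ndst3 was highest in Sst interneurons (76.2 ± 27.4 CPM), overlapping with eccentric SPNs (25.9 ± 31.2 CPM). Col6a1 was highest in eccentric SPNs (520.2 ± 284.8 CPM), overlapping with dSPNs (271.5 ± 88.8 CPM). Within WT mice Col6a1 was higher in dSPNs than in iSPNs in 3 of 3 mice, by a mean log2 difference of 1.16 ± 0.27 (SD), and Reln by 0.59 ± 0.07. In HttQ175/+ mice these differences were 0.71 ± 0.31 and 0.95 ± 0.48, and positive in 4 of 4 mice for both genes. The types were called from all genes of these nuclei, so these differences are given with no test.

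**Figure D4:**
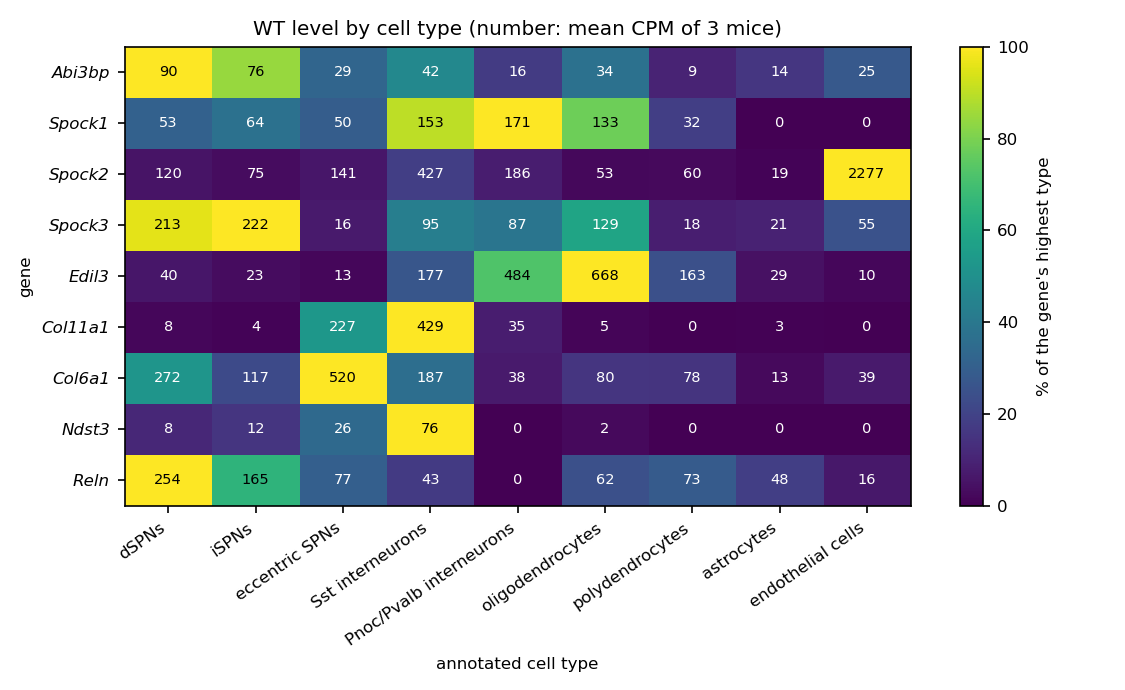
WT level of each member (rows) in the 9 types with at least 20 WT nuclei (columns); numbers are mean CPM of 3 mice and the colour is the share of the highest type of that gene in percent. Abi3bp, Spock3 and Reln are highest in dSPNs or iSPNs, Edil3 in oligodendrocytes at 667.6 CPM, and Spock2 in endothelial cells at 2277 CPM.

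In the remaining types few nuclei were available and values are sums of UMIs, with intervals for counting error only. Eccentric SPNs held 41 WT and 125 HttQ175/+ nuclei. There Col11a1 stood at 233.7 CPM (95% interval 146.4 to 353.8) in WT and 423.6 CPM (341.5 to 519.5) in HttQ175/+ nuclei, Col6a1 at 520.4 CPM (385.0 to 688.0) and 285.4 CPM (218.9 to 365.9). Values per mouse overlapped between genotypes for both. Edil3 had 1 WT and 18 HttQ175/+ UMIs in eccentric SPNs, a ratio of 7.80 (interval 1.23 to 325.1). Its values per mouse overlapped too, at 0 to 39.0 CPM in WT and 0 to 159.4 CPM in HttQ175/+ mice. In Pnoc/Pvalb interneurons Edil3 was at 447.1 CPM (334.9 to 584.8) and 358.2 CPM (278.2 to 454.1). Endothelial Spock2 was at 1854 CPM (1519 to 2240) and 1338 CPM (1167 to 1528), with values per mouse from 1278 to 3532 CPM in WT and 811.1 to 3678 CPM in HttQ175/+ mice, which overlap. In polydendrocytes Col11a1 had 0 WT and 15 HttQ175/+ UMIs, at least 2.53-fold higher with WT mice together set to 3 UMIs. SPNs of unknown subtype, cholinergic interneurons and microglia held 11, 6 and 13 WT nuclei, and in them at most 10 WT UMIs were read for any member. That highest count was for Spock3 in microglia, with 4 UMIs in HttQ175/+ mice. It came from 1 WT mouse, as 2 WT mice were at 0, and the genotypes overlapped. SPN markers summed to 7959 to 8997 CPM in WT and 1904 to 5851 CPM in HttQ175/+ microglia (0 of 8 higher). Their part in this count was not tested.

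Genes with the most similar WT pattern over these 9 types were named by Pearson's r of log2(CPM + 20) among 6755 genes. The r values describe 9 means that share libraries and depth. For Abi3bp they were Gsk3b and Icam5 (r = 0.97 and 0.95), for Spock3 Dmtn and Tlk1 (0.95 and 0.93) and for Reln Tesc and Cpne5 (both 0.98). Those of Spock1 were Elavl3 and Srcin1 (0.98 for both), and of Spock2 Dnajc16 and Cd200 (0.97 and 0.95). For Edil3 they were Clasp2 and Hsp90aa1 (0.95 and 0.94), for Col11a1 Slc6a7 and the membrane collagen Col25a1 (0.95 and 0.94) and for Col6a1 Ormdl3 and Cdk4 (0.93 and 0.92). Ndst3, with 36 WT UMIs in all, was nearest to Tmx4 and Lypd1 (0.97 and 0.96).

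The other genes of the matrix were taken from 12 lists with 301 genes beside the members, of which 299 were in the tables. In dSPNs 93 could be tested and 3 passed, 2 as higher and 1 as lower, a share near the 3.91% of all genes tested, with a median log2 change of -0.04 against 0.03 for all 8796 genes. Col6a2 reached the filter on low values (18.3 CPM) in both genotypes. Itga9 reached it in 3 WT and 0 HttQ175/+ mice and Ltbp4 in 0 WT and 3 HttQ175/+ mice, so these 2 entered through the genotype in which they are high and had to differ. Itga9, an integrin alpha subunit, went from 34.2 ± 8.39 to 10.8 ± 0.85 CPM (SD, n = 3 and 4; log2 change -1.46 ± 0.28, adjusted p = 0.00927, limma). Col6a2, the collagen VI chain that assembles with Col6a1, rose from 22.1 ± 2.62 to 48.8 ± 2.21 CPM (0.92 ± 0.21, adjusted p = 0.0242, limma). Ltbp4, which binds latent TGF-beta in the matrix, went from 5.48 ± 5.24 to 25.9 ± 6.51 CPM (1.72 ± 0.40, adjusted p = 0.0274, limma), on 8 and 72 UMIs. The call of Col6a2 was lost in 6 of the 7 cases with 1 mouse left out, all but WT replicate 3, and that of Ltbp4 without WT replicate 1 or WT replicate 2, while Ltbp4 missed the filter without HttQ175/+ replicate 1, 3 or 4. Itga9 missed the filter without any 1 WT mouse. Without nuclei that held eccentric SPN marker UMIs Col6a2 did not pass either (adjusted p = 0.0934, limma). Counting these cases, its call was lost in 8 of 16 other settings.

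In iSPNs 56 list genes could be tested and 1 passed, as lower, where 2.4% of all genes tested passed, with a median of -0.04 against -0.01 for all 5908 genes. Cdh13, a cadherin anchored in the membrane, went from 67.8 ± 6.98 to 27.5 ± 5.44 CPM (SD, n = 3 and 4; -1.20 ± 0.28, adjusted p = 0.0333, limma). It reached the filter (41.6 CPM) in 3 WT and 0 HttQ175/+ mice, so it entered through WT mice and had to differ. This call was lost without HttQ175/+ replicate 1, 2 or 4 (adjusted p = 0.0822, 0.0610 and 0.0501, limma) without TMM scaling (adjusted p = 0.0578, limma), with summed UMIs (0.0504) and without the top 5% of nuclei by UMIs (0.0673), and Cdh13 missed the filter without any 1 WT mouse. In dSPNs Cdh13 had a change of -0.69 ± 0.21 and did not pass (adjusted p = 0.0964, limma).

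By list, read against the same shares of all genes (3.91% in dSPNs and 2.4% in iSPNs), the reelin pathway beside Reln had 11 members tested in dSPNs and 8 in iSPNs, with 0 calls and medians of -0.04 and -0.01. Heparan sulfate enzymes beside Ndst3 had 13 and 9 tested, 0 calls and medians of -0.12 and -0.26. Of 41 further collagens 5 were tested in dSPNs, where 1, Col6a2, rose, and 0 in iSPNs. Of 7 further genes of the testican and SPARC family 3 were tested in dSPNs and 2 in iSPNs, with 0 calls. Integrins and other receptors had 12 and 8 tested, with Itga9 the 1 call. Other matrix glycoproteins had 14 tested in dSPNs, with Ltbp4 the 1 call, and 9 in iSPNs, with Cdh13 the 1 call. Lecticans and perineuronal net genes (5 and 4 tested), chondroitin sulfate enzymes (9 and 4), membrane proteoglycans (7 and 3), laminins, nidogens and netrins (3 and 2), and proteases and their inhibitors (10 and 7) had 0 calls in both types. The hyaluronan list had 1 gene tested in dSPNs and 0 in iSPNs, and 0 calls.

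Outside SPNs 0 of 27 list genes passed in Sst interneurons, 0 of 30 in astrocytes and 0 of 34 in oligodendrocytes (limma), where 0.0%, 0.0% and 0.658% of all genes tested passed. The smallest p were those of Col25a1 in Sst interneurons (-0.86 ± 0.32, adjusted p = 0.642, limma), of Pafah1b1 in astrocytes (1.60 ± 0.51, adjusted p = 0.212, limma) and of Hapln2, a link protein of nodes of Ranvier, in oligodendrocytes (-0.98 ± 0.27, adjusted p = 0.0909, limma). Hapln2 passed without HttQ175/+ replicate 3 (adjusted p = 0.0127, limma). It read 1003 ± 92.6 CPM in WT and 526.3 ± 149.9 CPM in HttQ175/+ oligodendrocytes, with no overlap between mice (SD, n = 3 and 4).

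**Figure D5:**
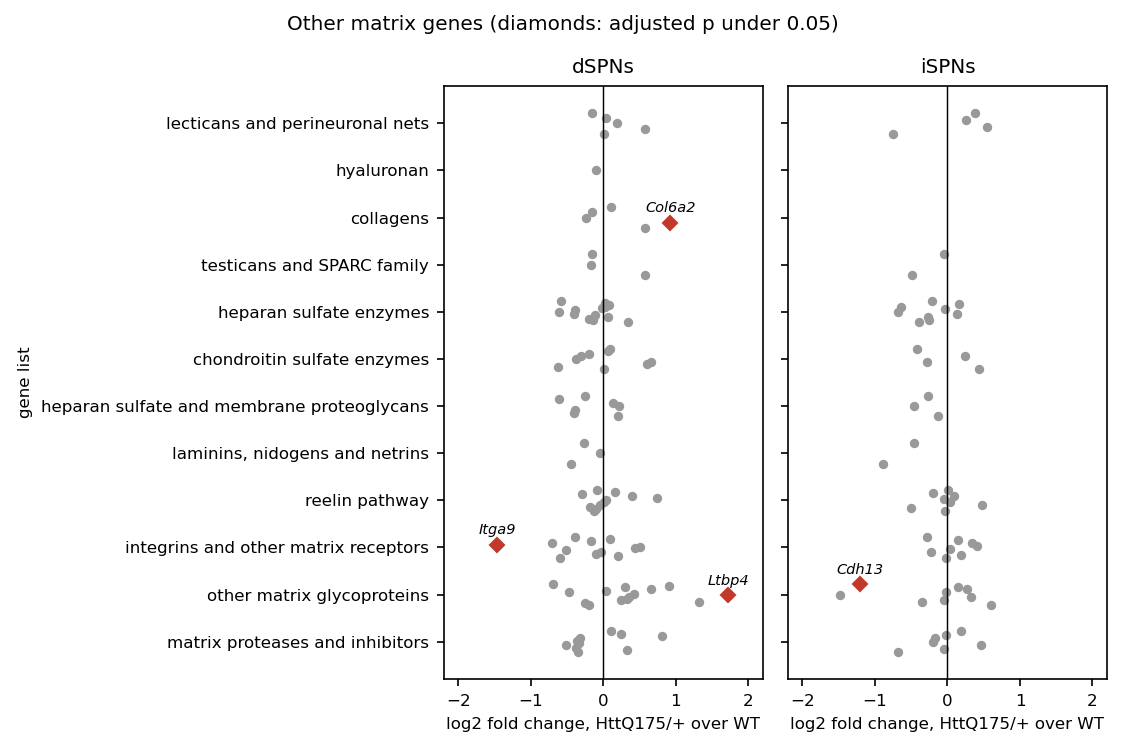
Log2 fold change of HttQ175/+ over WT (horizontal axis) of every tested gene in 12 matrix lists (vertical axis), members left out, in dSPNs (left) and iSPNs (right); points are genes and red diamonds those with an adjusted p under 0.05. The genes that passed are Itga9, Col6a2 and Ltbp4 in dSPNs and Cdh13 in iSPNs.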

How the data were processed

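Nuclei were isolated over an iodixanol barrier and libraries were made with version 3 of the Chromium 3' chemistry, per the labels' protocols. Cell Ranger 3.0.2, Seurat and the mm10 build are named in the submitters' processing notes; the sources used here do not give filters, type calling or use of strand. Deposited by the authors is 1 table per mouse as the natural log of 1 plus UMIs per 10000, and other values such as the cell type of each nucleus. All 5824756 values above 0 gave whole UMIs within 0.02. A table smoothed across nuclei was not used.

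Per mouse and type, CPM received TMM scaling (trimmed mean of M values) and were log2-transformed after adding the equivalent of 2 UMIs in the median mouse, 3.67 CPM in dSPNs and 8.31 CPM in iSPNs, which shrinks changes of low genes. Genes needed 15 UMIs in all and 10 at the median depth in 3 mice. limma 3.58.1 in R 4.3.3 gave two-sided tests with Benjamini-Hochberg adjustment over all genes of a type, at an adjusted p under 0.05, in types with at least 10 nuclei in 3 mice per genotype. The fit was also run on simulated dSPN counts with known fold changes, and nothing is read from that run here. Named beside the members were list genes that passed (up to 4 per list, or 3 per other type), the list gene with the smallest p where none passed, and the 2 most similar genes per member. Printed CPM precede TMM scaling. Single markers were counted as higher by their UMIs summed over the mice of a genotype, per UMI of the type, not by levels per mouse. Members and lists were chosen with earlier results of these data known. Coordinates are from GENCODE vM21 and promoters from RefSeq, both on GRCm38. Intervals are exact, at 95%, and with floors of 3 UMIs cover counting error only. Doublets were not called. Alternatives were another pseudocount, filter or scaling, summed UMIs, robust moderation, fewer nuclei and each mouse left out.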

Additional observations from a re-analysis of the deposited data

Results flagged for a closer look

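Spock2 in HttQ175/+ dSPNs had 1 mouse far from the other 3: replicate 2 read 188.6 CPM and the others 110.7 to 117.7 CPM, so the gap was 0.910 of the range of the group. Chance alone gives such a gap, past Dixon's 95% limit for 4 values, in about 1 of 20 groups, and 27 groups were examined. This mouse had the lowest depth, a median of 1657 UMIs per nucleus, whose part in the value was not tested. Its Spock2 UMIs were also spread over more nuclei. In dSPNs it held 158 UMIs in 115 nuclei, and HttQ175/+ replicates 1, 3 and 4 held 105 in 46, 55 in 25 and 63 in 29. In iSPNs it held 67 UMIs in 59 nuclei, against 27 in 13, 19 in 8 and 14 in 8. What sets this library apart for Spock2 was not tested.

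Edil3 lay higher in all HttQ175/+ mice in dSPNs, iSPNs and astrocytes and lower in all of them in oligodendrocytes. Log2 changes were taken here of the mean CPM plus the pseudocount of the type. That of Edil3 was larger by 1.498 in dSPNs, by 1.95 in iSPNs and by 1.80 in astrocytes than in oligodendrocytes. Spock1 lay higher in all HttQ175/+ mice in astrocytes and lower in all of them in oligodendrocytes. The difference between its log2 changes was 2.203, but WT astrocytes held 0 UMIs of Spock1. That value therefore depends on the pseudocounts, 22.7 CPM in astrocytes and 15.1 CPM in oligodendrocytes. HttQ175/+ replicate 2 held 14 of the 22 UMIs of HttQ175/+ astrocytes. These differences between types were not tested.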

How the results depend on the processing

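Counts of genes that passed were recomputed under 8 other settings, in SPNs also without nuclei holding eccentric SPN marker UMIs (added after seeing the data), and with each mouse left out. In dSPNs 344 genes passed, and 189 to 321 with 1 mouse left out. Without TMM scaling 226 rose and 162 fell in dSPNs in place of 127 and 217, with the median of all genes moved from 0.03 to 0.14. In iSPNs 142 passed (53 to 140 with 1 mouse left out), and 43 rose and 75 fell without TMM scaling in place of 29 and 113. In Sst interneurons 0 passed (0 to 1 with 1 mouse left out, 2 with no filter), in astrocytes 0 (0 to 2) and for the difference between SPN types 0 (0 to 0). In oligodendrocytes 24 passed, 1 to 93 with 1 mouse left out, 15 with a pseudocount of 1 UMI, 2 with no filter and 15 without the top 5% of nuclei by UMIs.

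Changes turned sign only in comparisons that the member had not passed. Members that passed were chosen on these differences, and some had to differ, so nothing is read from their kept sign. With 1 mouse left out Spock2 ran from -0.183 to 0.106 in dSPNs and from -0.168 to 0.355 in iSPNs, Col6a1 from -0.149 to 0.319 in dSPNs and from -0.513 to 1.43 in Sst interneurons, and Col11a1 from -0.474 to 0.231 in Sst interneurons. Spock2 in dSPNs was 0.11 without TMM scaling, 0.0461 without the top 5% of nuclei and 0.0456 without nuclei holding eccentric SPN marker UMIs. Among the differences between dSPNs and iSPNs, those with 1 mouse left out ran from -0.151 to 0.264 for Spock1, from -0.32 to 0.0134 for Spock2, from -0.0704 to 0.369 for Spock3 and from -0.0554 to 0.462 for Col11a1. Spock1 was -0.00721 with a pseudocount of 5 UMIs and -0.00510 without the top 5% of nuclei, where Spock2 was 0.00673. No paired analysis was possible because no label ties a WT mouse to an HttQ175/+ mouse. Depth limits the types other than SPNs, in which 0 to 5 of the 9 members could be tested.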
